A study of Rattus norvegicus with 6 samples.

Results

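The genes described are 10 transcriptional targets of p53, Mdm2, Ccng1, Gdf15, Sesn1, Sesn2, Btg2, Plk2, Zmat3, Phlda3 and Aen. They were taken by symbol from the deposited gene table, where each had 1 row, so they make up 10 of 19088 rows. The table came from poly(A)-selected RNA sequencing of primary cells of the nucleus pulposus, the gel-like core of an intervertebral disc, taken from SD (Sprague Dawley) rats. The rShh group (n = 3) had been kept for 48 h with recombinant Sonic hedgehog, the ligand of Hedgehog signalling, at 200 ng/ml in DMSO. The Control group (n = 3) had been kept for 48 h with DMSO alone at the same concentration. Both groups were grown in the same serum-containing medium, and no age, sex or genotype is given. Nothing in the labels says that the samples of a group were separate cultures or animals, and every p-value rests on variation among these 6 libraries that could be purely technical.

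The protein p53 is a transcription factor that is kept at low levels by the ubiquitin ligase Mdm2 and accumulates after DNA damage and other stress. It binds a pair of similar decamers in DNA and activates genes that restrain the cell cycle, repair DNA, alter metabolism, kill the cell or shut p53 off again. Several of these genes also answer to other regulators, for example Gdf15 and Sesn2 to the stress factor ATF4, and Btg2 and Plk2 to growth factors. In the intervertebral disc, p53 and its target p21 (Cdkn1a) are known mainly from work on the senescence of nucleus pulposus cells.

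Promoter sequences, from the RefSeq table for rat build GRCr8, are shown because 5 of these genes carried a searched element near their start. The table held windows for 9 of the 10 genes (10 windows, since Gdf15 has 2), and Zmat3 was not matched. Each window runs from 250 bases before to 50 bases after the start. A p53 site was scored as 2 adjacent decamers of the p53 consensus without a spacer, with the C and G of both cores intact and at most 3 mismatches over 20 bases, which reads the same on both strands. It was present in 3 of the 10 windows and in 1.34% of all 33469 windows. For the other windows this says only that no site scored in this way lies within them. The sites follow 5′ to 3′ in the direction of transcription, with the C and G of each core in capitals.

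Ccng1 (chr10:25685099-25685118, minus strand, 242 to 223 bases before the start, 1 mismatch): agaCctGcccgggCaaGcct

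Aen (chr1:142224503-142224522, plus strand, 30 to 11 bases before the start, 2 mismatches): gggCatGtccgggCaaGcaa

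Sesn1 (chr20:46948547-46948566, plus strand, 172 to 153 bases before the start, 3 mismatches): aagCttGtttttgCtgGcct

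The cyclic AMP response element TGACGTCA, a palindrome, lay in the Btg2 window 201 to 194 bases before the start and in the Plk2 window 66 to 59 bases before it, against 1.83% of all windows. Neither the ATF4 element (TGATGCAA or TGATGAAA, both strands; 1.91% of all windows) nor the CArG box bound by serum response factor (1.64%) was found in any of the 10 windows, which says only that these letters are not in them. The motifs were chosen with the expression results known, and a match is not evidence of binding. The whole windows of the 2 genes with the closest p53 sites, Ccng1 and Aen, and of the 2 with the cyclic AMP element, Btg2 and Plk2, are given below with the elements in capitals. Both pairs held 1 gene that was higher and 1 that was lower in rShh cells.

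Ccng1 (chr10:25684827-25685126, minus strand): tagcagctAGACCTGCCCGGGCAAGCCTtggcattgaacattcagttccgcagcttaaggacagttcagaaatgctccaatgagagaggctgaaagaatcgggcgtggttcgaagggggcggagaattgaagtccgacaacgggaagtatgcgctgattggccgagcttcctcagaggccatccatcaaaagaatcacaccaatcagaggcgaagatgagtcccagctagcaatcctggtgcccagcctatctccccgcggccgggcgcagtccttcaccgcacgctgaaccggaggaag

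Aen (chr1:142224283-142224582, plus strand): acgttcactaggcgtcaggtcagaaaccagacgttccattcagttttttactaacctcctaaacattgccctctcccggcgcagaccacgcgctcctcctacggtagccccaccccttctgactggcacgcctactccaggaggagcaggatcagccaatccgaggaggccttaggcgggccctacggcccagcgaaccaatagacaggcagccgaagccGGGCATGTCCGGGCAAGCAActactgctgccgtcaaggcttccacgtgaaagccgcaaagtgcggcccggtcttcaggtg

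Btg2 (chr13:48087641-48087940, minus strand): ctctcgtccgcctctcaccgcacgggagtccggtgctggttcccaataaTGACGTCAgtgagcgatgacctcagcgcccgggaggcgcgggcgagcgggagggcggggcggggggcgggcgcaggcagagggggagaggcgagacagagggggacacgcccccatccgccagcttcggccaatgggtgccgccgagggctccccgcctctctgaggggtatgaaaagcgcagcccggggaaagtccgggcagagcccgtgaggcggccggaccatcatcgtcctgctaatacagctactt

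Plk2 (chr2:43702286-43702585, plus strand): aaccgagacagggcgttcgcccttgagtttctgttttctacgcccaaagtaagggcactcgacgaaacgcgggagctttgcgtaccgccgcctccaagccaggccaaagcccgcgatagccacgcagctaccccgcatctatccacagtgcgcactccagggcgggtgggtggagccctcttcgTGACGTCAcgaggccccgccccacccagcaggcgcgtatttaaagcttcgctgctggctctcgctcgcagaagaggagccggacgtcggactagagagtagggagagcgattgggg

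Counts over genes summed to 65116846 to 70031072 in the rShh libraries and to 50758195 to 55501124 in the Control libraries. The groups differed in more than the ligand. The Y-chromosome genes Ddx3, Eif2s3y and Kdm5d together had 12498 to 13614 counts in the rShh libraries and 0 in each Control library, so this difference between the cells and the treatment cannot be told apart. The mitochondrial share of counts was 3.25% to 3.36% in rShh libraries and 1.97% to 2.28% in Control libraries. Of the nucleus pulposus markers, Acan, Pax1, Foxf1, Cd24 and Ca3 averaged 15.4 CPM or more in both groups (CPM is counts scaled to library size). Cd24 and Pax1 were at 15.4 and 68.5 CPM in rShh cells, against 51.2 and 89.8 CPM in Control cells. Ca3 and Foxf1 were at 59.4 and 50.8 CPM in rShh cells, against 17.7 and 47.0 CPM in Control cells. Krt8 and Foxa2 were at 2.11 and 0.588 CPM in rShh cells, against 12.6 and 2.09 CPM in Control cells. Sox9 and Ca12 were at 4.67 and 1.61 CPM in rShh cells, against 2.34 and 0.026 CPM in Control cells. Col2a1 and Krt18 were at 0.107 and 0.020 CPM in rShh cells, against 1.61 and 0.053 CPM in Control cells. Tbxt, Krt19 and Noto were not analysed here. Markers of leukocytes summed to 0.359 to 0.993 CPM in rShh and 0.298 to 0.670 CPM in Control libraries, and markers of red cells to 0.158 to 0.279 CPM in rShh and 0 CPM in Control libraries. Endothelial markers summed to 1.95 to 2.22 CPM in rShh and 4.86 to 7.07 CPM in Control libraries, mostly from Tek. These sums cover 4 of 6 leukocyte, 3 of 6 endothelial and 1 of 5 red cell markers (Alas2), and the others were not analysed here. Of 10 nucleus pulposus markers tested, 4 were higher and 5 lower in rShh cells, where 31.5% of all genes tested were higher and 28.8% lower. The nucleus pulposus markers summed to 760 to 812 CPM in rShh and 271 to 296 CPM in Control libraries. Acan alone made that difference (586 CPM in rShh, 56.5 CPM in Control cells), and without it the sums were 191 to 216 CPM in rShh and 218 to 232 CPM in Control libraries. Of 6 fibroblast markers, 5 were higher and Col1a1 was lower, against the same shares of all genes tested. Col1a1 averaged 16390 ± 417 CPM in rShh and 35166 ± 1559 CPM in Control cells. Among the 5, Thy1, Lum and Dcn averaged 774, 24.5 and 16.6 CPM in rShh cells, against 65.0, 3.08 and 0.550 CPM in Control cells. Col3a1 and Pdgfra averaged 2118 and 117 CPM in rShh cells, against 1421 and 58.6 CPM in Control cells. The part of these differences in the results below was not tested.

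The p53 targets did not move as a group. Btg2, Gdf15 and Ccng1 were higher in rShh cells, Phlda3, Sesn2, Plk2 and Aen were lower, and Mdm2, Sesn1 and Zmat3 did not pass the test. That is 3 higher and 4 lower of 10 tested, where 31.5% of all 14775 genes tested were higher and 28.8% lower (60.3% in either direction) by edgeR at an adjusted p below 0.05. The shares among the 10 genes lie near those backgrounds. Of the calls, 2 were at least 2-fold higher (Btg2 and Gdf15, against 13% of all genes) and 0 were at least 2-fold lower (against 5.71%). The median log2 change was -0.24 over the 10 genes and 0.01 over all genes tested, and the median absolute log2 change was 0.60 over the 10 genes and 0.49 over all. For all 10 genes the CPM ranges of the groups did not overlap (4 above and 6 below the Control range), against 35.7% above and 32.5% below, or 68.1% in all, among the genes tested. Each of the 10 had at least 351 counts in every library, and all 10 passed the filter on low counts. A bulk library cannot tell fewer expressing cells from less RNA per cell.

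**Figure D1:**
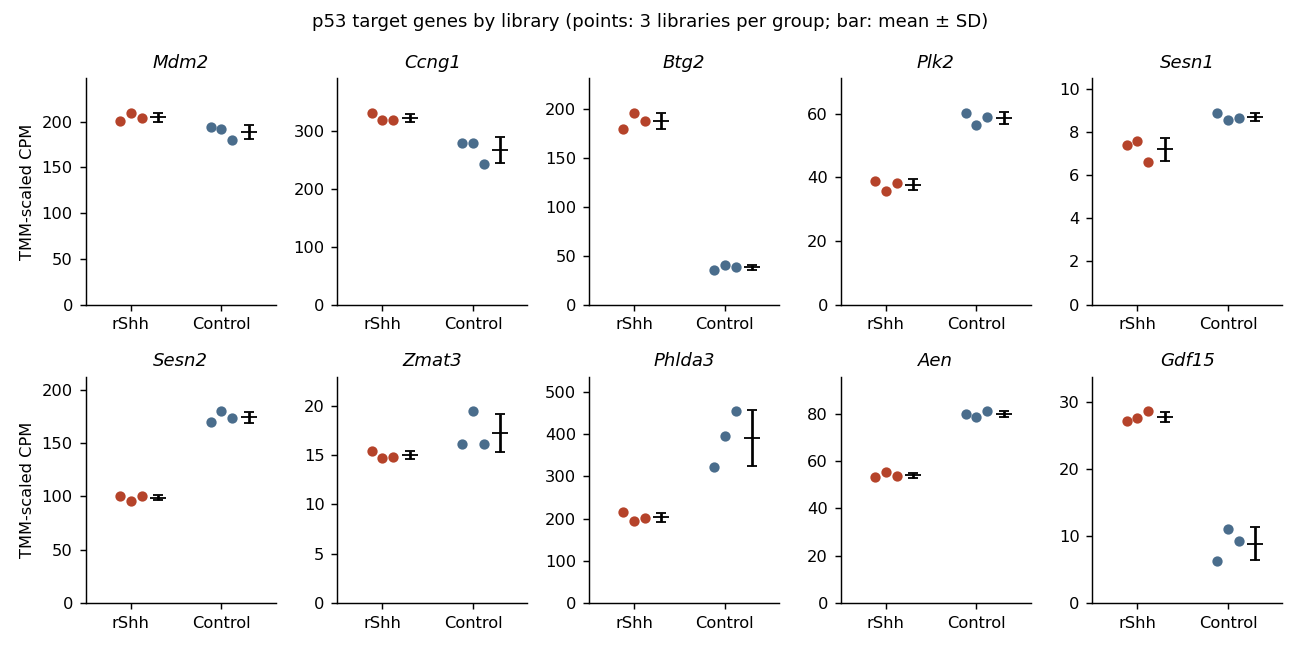
Each panel shows 1 gene, with TMM-scaled CPM on a linear axis from 0, the 3 rShh libraries on the left (red), the 3 Control libraries on the right (blue) and bars for mean ± SD. Btg2 and Gdf15 stand far above their Control libraries, Sesn2, Plk2, Phlda3 and Aen stand below them, and the groups lie close together for Mdm2, Sesn1 and Zmat3.

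Of the genes that feed back on p53, Ccng1 was higher in rShh cells and Mdm2 did not pass the test. Mdm2, the ubiquitin ligase that degrades p53 and is induced by it (ENSRNOG00000006304, chromosome 7, 60719066 to 60743328, minus strand, in the coordinates of the deposited table), had 200.3, 209.7 and 204 CPM in rShh libraries, against 195, 192 and 180 CPM in Control libraries. The lowest rShh value lay just above the highest Control value. Means of 205 ± 4.71 CPM in rShh and 189 ± 7.92 CPM in Control cells (SD, n = 3 each) gave a log2 change of 0.12 (SE 0.05, 95% interval -0.0013 to 0.24, edgeR adjusted p = 0.0804). Without Control replicate 1 the adjusted p was 0.0405, so the call depends on that library, and upper-quartile scaling gave a log2 change of 0.05 (adjusted p = 0.432).

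Ccng1 encodes cyclin G1, which recruits a phosphatase to Mdm2 and is among the most widely used p53 target readouts (ENSRNOG00000003256, chromosome 10, 25903911 to 25910325, minus strand). It had 331, 318 and 318 CPM in rShh libraries and 279.8, 279.6 and 242 CPM in Control libraries. All rShh values were above all Control values, with Control replicate 3 the lowest. The 1.21-fold rise was small beside those of Btg2 and Gdf15 (log2 change 0.27, SE 0.06, edgeR adjusted p = 0.00387).

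Mdm2 and Ccng1 were the only genes of the 10 with more than 1 transcript row. Mdm2 is transcribed from an upstream promoter and from a p53-responsive promoter within its first intron, and its transcript rows (2855 and 2191 bases) started 668 bases apart. Which promoter each row stands for is not annotated in the files. The 2191-base transcript, whose start lies downstream, took 23.6%, 24.9% and 23.0% of the Mdm2 counts in rShh libraries and 24.1%, 21.6% and 21.3% in Control libraries. The ranges overlapped, and the difference of 1.46 percentage points had a two-sided exact permutation p of 0.3, where 3 against 3 libraries allow no p below 0.1. Neither transcript passed the isoform test (edgeR adjusted p = 0.173 for the longer and 0.119 for the shorter), in which 23.8% of 18180 isoforms were higher and 21.3% lower. The 3198-base Ccng1 transcript carried 98.8% to 99.3% of that gene's counts in rShh libraries and 98.5% to 99.1% in Control libraries. How reads were split between transcripts that share exons is not given in the sources used here, so these shares are estimates.

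**Figure D2:**
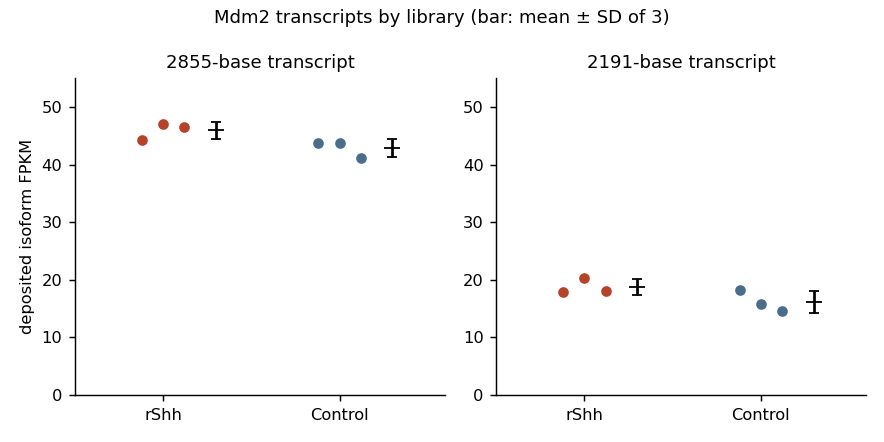
Deposited FPKM (vertical axes from 0) of the longer (left) and shorter (right) Mdm2 transcript, with the 3 rShh libraries left of the 3 Control libraries in each panel and bars for mean ± SD. The shorter transcript took on average 23.8% of Mdm2 counts in rShh and 22.4% in Control cells, with overlapping ranges.

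Among the genes that act on the cell cycle, Btg2 and Plk2 went opposite ways. Btg2 encodes an antiproliferative adaptor of the CCR4-NOT deadenylase (ENSRNOG00000003300, chromosome 13, 50913180 to 50916982, minus strand). It had 179, 196 and 187 CPM in rShh libraries, against 35.6, 40.2 and 38.5 CPM in Control libraries. The rShh libraries lay far above all Control libraries. The 4.91-fold rise (log2 change 2.30, SE 0.07, edgeR adjusted p = 3.3e-09) placed Btg2 at the 95.3rd percentile of log2 changes over all genes tested. Plk2, a polo-like kinase of centriole duplication and stress responses (ENSRNOG00000011951, chromosome 2, 41911131 to 41916901, plus strand), had 38.9, 35.8 and 38.3 CPM in rShh libraries and 60.2, 56.5 and 58.8 CPM in Control libraries. All rShh values were below all Control values. Plk2 was 35.6% lower in rShh cells (log2 change -0.63, SE 0.07, edgeR adjusted p = 2.09e-05).

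The sestrins restrain mTORC1 signalling when amino acids are short or the cell is stressed. Sesn2, which senses leucine (ENSRNOG00000042785, chromosome 5, 150684133 to 150704117, minus strand), had 100.01, 95.8 and 101 CPM in rShh libraries and 170, 180 and 173 CPM in Control libraries. The groups were far apart relative to their spread, and the mean was 43.3% lower in rShh cells (log2 change -0.82, SE 0.05, edgeR adjusted p = 6.99e-07). Sesn1 was the scarcest of the 10 (ENSRNOG00000000302, chromosome 20, 46667121 to 46758305, plus strand), with 477, 526 and 432 counts in rShh libraries and 502, 458 and 438 counts in Control libraries. Scaled for library size this was 7.40, 7.56 and 6.60 CPM in rShh libraries and 8.88, 8.53 and 8.63 CPM in Control libraries. Its log2 change of -0.27 (SE 0.12) did not pass (edgeR adjusted p = 0.0767), although it passed with upper-quartile scaling (adjusted p = 0.0326). Counting error alone gives Sesn1 a coefficient of variation of 4.57% in rShh and 4.63% in Control libraries, the largest of the 10 genes in both groups. Sesn3, the family member known mainly as a FoxO target, had 31.8, 32.2 and 33.6 CPM in rShh libraries and 76.4, 58.8 and 52.5 CPM in Control libraries, and was 48.0% lower in rShh cells (edgeR adjusted p = 8.21e-05).

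Of the genes tied to cell death and survival, Phlda3 and Aen were lower in rShh cells and Zmat3 did not pass. Phlda3, a pleckstrin-homology protein that competes with Akt for membrane lipids (ENSRNOG00000009068, chromosome 13, 52588917 to 52592001, plus strand), had 215, 193 and 201 CPM in rShh libraries and 322, 396 and 454 CPM in Control libraries. The Control libraries were spread widely, yet the lowest of them was well above the highest rShh library. Phlda3 was 48.1% lower in rShh cells (log2 change -0.95, SE 0.11, edgeR adjusted p = 3.1e-05), at the 7.82nd percentile of all genes tested. Aen, a nuclease that takes part in p53-dependent apoptosis (ENSRNOG00000018421, chromosome 1, 140584380 to 140593745, plus strand), had 53.1, 55.3 and 53.5 CPM in rShh libraries and 79.9, 78.4 and 81.1 CPM in Control libraries. It was among the most even genes within each group and was 32.4% lower in rShh cells (log2 change -0.56, SE 0.06, edgeR adjusted p = 1.61e-05). Zmat3, a zinc-finger RNA-binding protein that regulates splicing and mRNA stability (ENSRNOG00000010119, chromosome 2, 118721334 to 118745766, minus strand), had 15.4, 14.7 and 14.8 CPM in rShh libraries and 16.1, 19.4 and 16.1 CPM in Control libraries. Control replicate 2 stood above the others, which were close to the rShh values. The log2 change was -0.20 (SE 0.11, 95% interval -0.44 to 0.03, edgeR adjusted p = 0.122), and it passed only with upper-quartile scaling (adjusted p = 0.0471) among the alternatives run. Without Control replicate 2 the log2 change was -0.11 (adjusted p = 0.388).

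Gdf15 encodes a secreted cytokine of the TGF-beta superfamily that marks cell stress (ENSRNOG00000019661, chromosome 16, 20555395 to 20557978, plus strand). It had 1744, 1916 and 1869 counts in rShh libraries and 351, 594 and 469 counts in Control libraries. On the scaled level these were 27.1, 27.5 and 28.6 CPM in rShh libraries and 6.21, 11.1 and 9.25 CPM in Control libraries. The rShh libraries were nearly equal, whereas the Control libraries differed widely and all lay below them. Gdf15 was 3.13-fold higher in rShh cells (log2 change 1.65, SE 0.17, edgeR adjusted p = 2.12e-05).

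**Figure D3:**
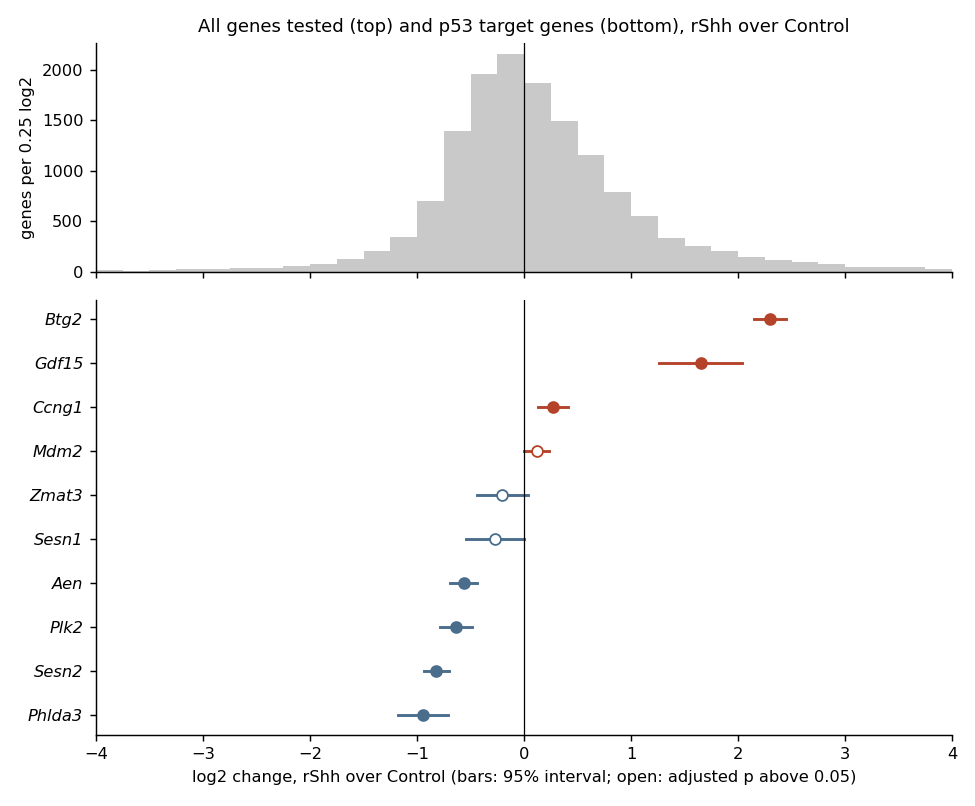
Top, histogram of log2 changes (rShh over Control) of all genes tested in bins of 0.25, without the 333 genes beyond 4 log2 units. Bottom, log2 change of each p53 target with its 95% interval, red above and blue below 0, filled where the edgeR adjusted p was below 0.05. The 10 genes run from -0.95 (Phlda3) to 2.30 (Btg2). Btg2 and Gdf15 lie at percentiles 95.3 and 92.1 of all genes tested, and the other 8 between percentiles 7.82 and 62.7.

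Spread between libraries was mostly larger in the Control group. The coefficient of variation of CPM was 2.14% to 7.15% over the 10 genes in rShh libraries and 1.65% to 27.8% in Control libraries, and it was larger in the Control group for 7 of them. The same held for 70.5% of the 14629 tested genes with a coefficient in both groups, whose median was 6.84% in rShh and 11.4% in Control libraries. Gdf15 (2.76% in rShh, 27.8% in Control), Phlda3 (5.36% in rShh, 16.9% in Control), Zmat3 (2.69% in rShh, 11.1% in Control) and Ccng1 (2.31% in rShh, 8.13% in Control) had the widest Control values. Sesn1, Plk2 and Aen were the exceptions, with a larger coefficient in the rShh group.

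Per transcript length, the changes rearranged the order of the targets. On the deposited FPKM scale (fragments per length of transcript, scaled to sequencing depth), Phlda3 had the highest level in both groups, at 120 ± 4.49 FPKM in rShh and 229 ± 36.9 FPKM in Control cells. Ccng1 had rank 2 in both, at 83.8 FPKM in rShh and 69.0 FPKM in Control cells. Btg2 had rank 3 in rShh cells (61.6 FPKM) and rank 7 in Control cells (12.4 FPKM), and Gdf15 rank 5 in rShh (25.6 FPKM) and rank 9 in Control cells (8.08 FPKM). Sesn2 had rank 6 in rShh cells (22.2 FPKM) and rank 4 in Control cells (39.0 FPKM), and Sesn1 was last in both (1.75 FPKM in rShh, 2.10 FPKM in Control cells). In rShh cells the ranges of neighbours overlapped only for Btg2 and Mdm2, and in Control cells only for Btg2 and Zmat3. Of the counts of the 10 genes together, Btg2 took 15.4% to 17.0% in rShh libraries and 3.03% to 3.19% in Control libraries, while Phlda3 took 16.8% to 18.4% in rShh and 27.5% to 36.0% in Control libraries. Counts and FPKM gave like results, since the log2 ratio of mean FPKM differed from the edgeR log2 change by at most 0.012 for any of the 10, and limma on log2(FPKM + 1) gave the same call for all 10.

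**Figure D4:**
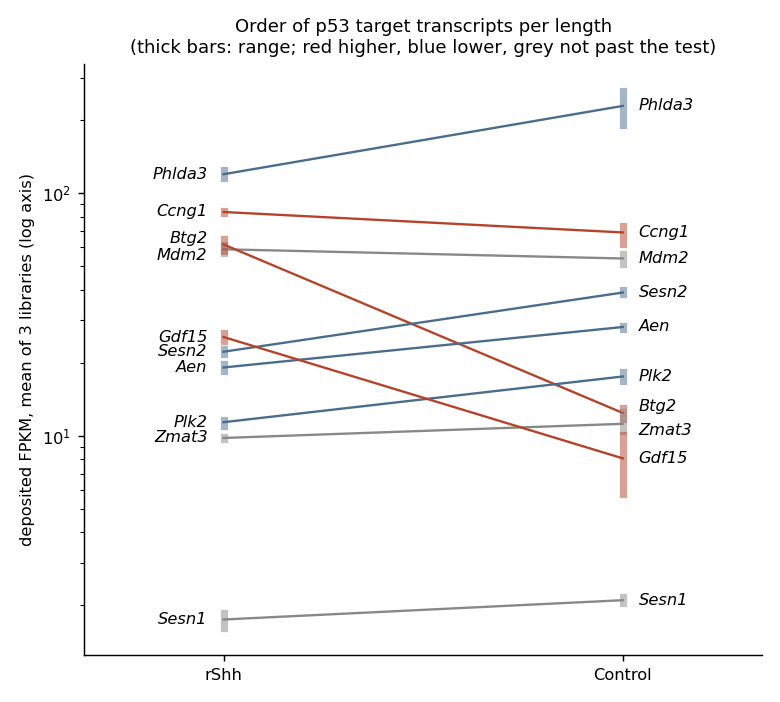
Mean deposited FPKM of each p53 target (log axis) in rShh cells (left) and Control cells (right), with thick bars for the range of 3 libraries. Lines are red where the gene was higher, blue where lower and grey where the test was not passed. The line of Btg2 crosses those of Mdm2, Sesn2, Aen and Plk2, and the line of Gdf15 those of Sesn2, Aen, Plk2 and Zmat3.

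The genes that regulate p53 were divided too, where 31.5% of all genes tested were higher and 28.8% lower. Of the 12 p53 regulators tested, 4 were higher, 2 lower and 6 not past the test (median log2 change 0.14). Without Control replicate 1, 7 were higher, as were 4878 of all 15167 genes tested in that setting. Mdm4, the relative of Mdm2 that blocks the p53 activation domain, averaged 15.7 ± 0.547 CPM in rShh and 10.9 ± 0.976 CPM in Control cells (edgeR adjusted p = 0.00171). The damage kinases Atm and Atr averaged 36.1 ± 2.43 and 24.9 ± 1.91 CPM in rShh cells, against 17.5 ± 1.46 and 11.96 ± 2.38 CPM in Control cells. Chek1 was not analysed here.

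Other known p53 targets went both ways, as did all genes tested (31.5% higher and 28.8% lower). Of 14 with roles in arrest and repair, 4 were higher, 3 lower and 7 not past it (median log2 change 0.30). Cdkn1a, the cyclin-dependent kinase inhibitor p21, had 333, 323 and 337 CPM in rShh libraries and 660, 675 and 716 CPM in Control libraries. It was 51.6% lower in rShh cells (log2 change -1.05, SE 0.05, edgeR adjusted p = 8.02e-08). Plk3, a stress-activated polo-like kinase, rose to 52.3 ± 3.41 CPM in rShh cells, against 17.3 ± 1.16 CPM in Control cells, while the ribosomal protein paralogue Rps27l fell to 94.6 ± 5.34 CPM in rShh cells, against 132 ± 7.49 CPM in Control cells. Of 12 with roles in cell death, 5 were higher, 2 lower and 5 not past it (median log2 change -0.03). Under upper-quartile scaling 4 were lower, as were 4798 of all 14775 genes tested. The autophagy regulator Dram1 was higher (109 ± 3.60 CPM in rShh, 38.0 ± 0.425 CPM in Control cells), as was the BH3-only protein Pmaip1 (393 ± 9.78 CPM in rShh, 253 ± 8.26 CPM in Control cells). The pore-forming protein Bax was lower (68.8 ± 2.13 CPM in rShh, 138 ± 14.2 CPM in Control cells). Bbc3 and Tnfrsf10b were not analysed here.

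Close relatives of the 10 genes moved in both directions as well, against 31.5% higher and 28.8% lower among all genes tested. Of 13 such relatives tested, 6 were higher, 2 lower and 5 not past the test (median log2 change 0.53). The polo-like kinases Plk1, Plk3 and Plk4 were higher in rShh cells, with log2 changes of 1.69, 1.59 and 2.85, whereas Plk2 was lower. Plk1 and Plk4 drive mitosis and centriole duplication in dividing cells. The following relatives are named after their values were seen. Phlda1 averaged 226 ± 5.30 CPM in rShh and 44.7 ± 11.9 CPM in Control cells, the opposite direction to Phlda3. Btg1 was higher (90.5 ± 3.53 CPM in rShh, 55.5 ± 3.19 CPM in Control cells), in the direction of Btg2. Btg3 had 72.7 ± 3.93 CPM in rShh and 78.6 ± 1.94 CPM in Control cells and did not pass. Tob2 of the same family was lower (15.9 ± 2.26 CPM in rShh, 24.5 ± 3.46 CPM in Control cells). Tob1 averaged 63.6 ± 2.89 CPM in rShh and 60.1 ± 6.39 CPM in Control cells and did not pass. Ccng2, the relative of Ccng1, averaged 26.2 ± 1.24 CPM in rShh and 24.4 ± 2.45 CPM in Control cells (edgeR adjusted p = 0.364).

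The genes called in each of 3 further lists all went in 1 direction, against 31.5% higher and 28.8% lower among all genes tested. All 11 tested cell cycle genes known to be repressed through p21 and the DREAM complex were higher in rShh cells, with a median log2 change of 1.53. Ccna2 averaged 32.9 ± 1.03 CPM in rShh and 6.12 ± 0.306 CPM in Control cells, Cdk1 88.4 ± 3.39 CPM in rShh and 33.1 ± 2.70 CPM in Control cells, and Bub1 31.8 ± 2.26 CPM in rShh and 5.94 ± 1.15 CPM in Control cells. Of 8 genes of the ATF4 stress response, 6 were lower, 0 higher and 2 not past the test (median log2 change -0.54). Atf4, Asns and Trib3 averaged 467 ± 7.98, 157 ± 3.21 and 57.8 ± 2.92 CPM in rShh cells, against 697 ± 33.2, 238 ± 4.35 and 160 ± 13.4 CPM in Control cells. Sesn2 was lower like this group, and Gdf15 was higher. Of 8 immediate early genes, which growth factors induce within minutes, 7 were higher and 1 not past the test (median log2 change 0.98). Egr1, Fos and Nr4a1 averaged 286 ± 19.3, 35.3 ± 1.46 and 121 ± 3.10 CPM in rShh cells, against 17.7 ± 3.76, 2.37 ± 0.999 and 38.6 ± 4.50 CPM in Control cells. Btg2 was higher like this group, and Plk2 was lower. The lists are descriptions without a set test, and their link to the p53 targets was not tested.

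**Figure D5:**
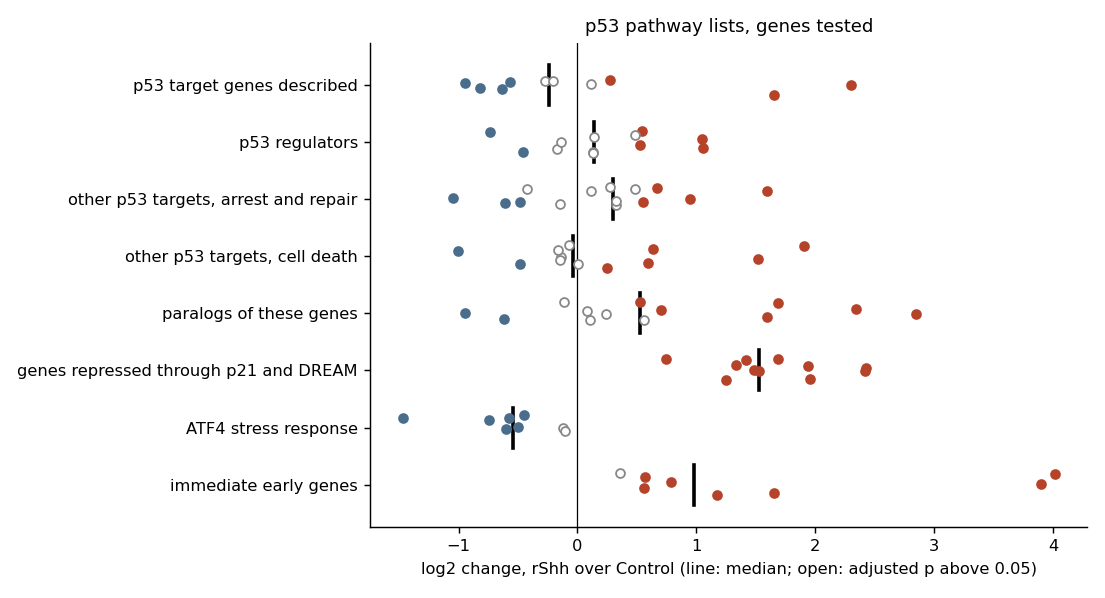
Log2 change (rShh over Control, horizontal axis) of each gene tested, 1 row of points per list, with red for higher, blue for lower and open grey for not past the test, and a black line at the list median. The p53 targets and the regulators lie on both sides of 0, the 11 cell cycle genes all lie above it, and the 8 ATF4 response genes all lie below it.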

How the data were processed

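RNA from 3 rShh and 3 Control samples was measured. The authors deposited a gene table (19088 rows) and an isoform table (24343 rows), per the file headers with raw counts and FPKM for each sample. The submitters' processing notes list StringTie 1.3.4d, HISAT2 2.0.4, cutadapt 1.9, edgeR and DESeq2. What each tool did, how strand was handled and which genome build was used were not given in the sources used here; gene coordinates are those of the deposited tables. Columns were matched to samples by title.

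All gene rows were fitted together with edgeR 4.0.16 in R 4.3.3 (filterByExpr with a minimum count of 10, TMM scaling, glmQLFit and glmQLFTest with group as the only term, two-sided). P-values were adjusted by the Benjamini-Hochberg method over all rows tested, with a threshold of 0.05. Isoform counts were fitted in the same way. CPM are counts divided by TMM-scaled library size; ± gives the SD. Standard errors are the log2 change over the square root of the F statistic of the same fit, and 95% intervals follow from them. Alternatives used DESeq2 1.42.0 and limma 3.58.1, other scalings and filters, and left out each sample; the tests were first tried on simulated counts. The common biological coefficient of variation was 12.7%. Replicates differed by more than sampling noise (chi-square per degree of freedom 10.5 to 12.1 between rShh and 20.6 to 50.5 between Control libraries). No row overlapped a p53 target gene.

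The 10 genes and all gene lists were chosen with earlier results of these data known. Named from each list were the 3 genes with the smallest p, plus Mdm4, Cdkn1a and Sesn3; 1 further gene that this rule names is not reported here. Cell type markers are named as checks, and other genes are said to be named after their values were seen. Promoters came from RefSeq, build GRCr8, and a decamer of the p53 consensus is 3 purines, C, A or T, A or T, G and 3 pyrimidines.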

Additional observations from a re-analysis of the deposited data

How the results depend on the processing

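The calls of Btg2, Gdf15, Ccng1, Phlda3, Sesn2, Plk2 and Aen kept their direction and stayed past the threshold under every alternative run: other scalings, filters and tests, the replicate block and each sample left out. Of 140 alternative values for the 10 genes, 137 kept their side of the threshold, none changed direction, and 3 passed where the main test did not. These were Mdm2 without Control replicate 1 (log2 change 0.14), and Sesn1 and Zmat3 under upper-quartile scaling (-0.34 and -0.27). That scaling gave 6 lower of the 10 genes and, among all genes, 4273 higher and 4798 lower against 4657 and 4257. It moved the median log2 change over all genes tested from 0.01 to -0.05, and why the scalings differ was not tested. Upper-quartile scaling also gave 0.05 for Mdm2, and limma on log2(FPKM + 1) gave -0.17 for Sesn1. With each sample left out in turn, the log2 change ran from 0.081 to 0.14 for Mdm2, from 1.44 to 1.84 for Gdf15, from -0.25 to -0.11 for Zmat3 and from -1.07 to -0.83 for Phlda3. P53 regulators higher ranged from 4 to 7 without single samples, where 4162 to 4878 of all genes tested were higher. Cell death targets lower were 4 under upper-quartile scaling, where 4798 of all genes tested were lower.

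Replicate numbers showed no sign of pairing: deviations of same-numbered samples correlated at -0.05, -0.03 and -0.04. Those of differently numbered samples correlated at -0.01 to 0.05. With 3 libraries per group, these values cannot exclude that samples were handled in pairs. With the replicate block the genes called were 4470 higher and 3970 lower, and the 10 targets gave 3 and 4. The transcript of Ccng1 with 3198 bases lost its call without any 1 rShh replicate (edgeR adjusted p = 0.0506 to 0.0663). The 2191-base Mdm2 transcript passed without Control replicate 1 (log2 change 0.28, adjusted p = 0.0331). Counting error was largest for Sesn1 of the 10 genes in both groups, and whether it limited the Sesn1 call was not tested.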
